A study of Mus musculus with 30 samples.

Results

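The acyl-CoA thioesterases of the ACOT family were followed in mouse liver as 9 genes chosen by name, namely Acot1, Acot2, Acot3, Acot4, Acot7, Acot8, Acot9, Acot12 and Acot13, of 57180 genes in the count table. All 9 passed the filter on low counts in both studies. Acot3 was the member picked for its measured rise with UB-NPs in the prevention study. Values from that contrast are therefore given as a description for every member, and Acot3 is described without a test in the whole prevention study. Expression came from poly(A)-selected RNA sequencing of liver in 30 libraries, 5 in each of 6 groups.

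In the prevention study, UB mice ate a high-fat diet and were given UB-NPs at 60 mg/kg/day; what the abbreviation stands for is not spelled out in the sample labels. MC mice received the high-fat diet with water, and NC mice a standard diet with water. All 3 groups were dosed by oral gavage for 10 weeks. In the treatment study, Uro and HFD mice were first made obese on a high-fat diet for 10 weeks and stayed on it for 8 more weeks. During those weeks Uro mice were given UB-NPs at 60 mg/kg/day, whereas HFD mice had water. NFD mice had a standard diet with water for 18 weeks. Every group was designed with 10 mice. The labels do not say that a library is a single mouse, although it was treated as such here, so p-values measure the spread between libraries. Strain, sex and age are not given in the sources used here.

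Acyl-CoA thioesterases split fatty acyl-CoA into a free fatty acid and coenzyme A, undoing the step catalysed by acyl-CoA synthetases. They set the balance of acyl-CoA, free acid and coenzyme A separately in the cytosol, mitochondria and peroxisomes. The type I enzymes share an alpha/beta hydrolase fold and several are classical targets of the nuclear receptor PPARA in liver, whereas the type II enzymes share a hotdog fold and are unrelated to them in sequence. Acot1 is a type I enzyme of the cytosol, Acot2 its mitochondrial counterpart, and Acot3 and Acot4 type I enzymes of peroxisomes. Among the type II enzymes, Acot8 is peroxisomal, Acot9 mitochondrial and Acot7 cytosolic. Acot12 hydrolyses acetyl-CoA in the cytosol of liver cells, and Acot13, also called Them2, is a long-chain thioesterase associated with mitochondria.

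The type I genes lay side by side on chromosome 12 (GRCm39, GENCODE release M39), all on the plus strand, in the order Acot2, Acot1, Acot4, Acot3, Acot5 and Acot6 within 123.7 kb, from base 84034428 to base 84158127. Acot2 (ENSMUSG00000021226) spanned 84034428 to 84040647, Acot1 (ENSMUSG00000072949) 84056256 to 84065145, Acot4 (ENSMUSG00000052392) 84085081 to 84095375 and Acot3 (ENSMUSG00000021228) 84098918 to 84107176. Acot4 and Acot3 were separated by 3542 bases. The type II genes were scattered. Acot7 lay on chromosome 4, Acot8 on chromosome 2, Acot9 on the X chromosome, and Acot12 and Acot13 on chromosome 13.

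The neighbours on chromosome 12 are close copies, which bears on how far their counts can be told apart. The coding sequences of Acot1 and Acot2 were 95.6% identical, those of Acot1 and Acot3 83.9% and those of Acot1 and Acot4 77.3%. Of all 150-base windows of the transcript, the read length used, 12.3% of Acot1 and 9.3% of Acot2 matched another gene of the cluster exactly, against 3.5% of Acot3 and 0.0% of Acot4 and of each type II member. The stretch below shows coding bases 601 to 690 of Acot1, counted from the first base of the start codon, with the aligned bases of its neighbours (724 to 813 in Acot2 and 601 to 690 in Acot3 and Acot4). Capitals mark each base that differs from Acot1.
Acot1: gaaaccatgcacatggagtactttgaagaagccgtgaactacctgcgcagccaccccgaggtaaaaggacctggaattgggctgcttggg
Acot2: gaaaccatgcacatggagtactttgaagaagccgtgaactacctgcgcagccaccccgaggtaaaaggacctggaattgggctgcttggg
Acot3: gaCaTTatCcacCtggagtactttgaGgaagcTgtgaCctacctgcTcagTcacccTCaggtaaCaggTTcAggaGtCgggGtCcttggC
Acot4: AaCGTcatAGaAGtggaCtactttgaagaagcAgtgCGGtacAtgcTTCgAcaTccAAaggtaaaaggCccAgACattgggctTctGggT
The stretch was picked among 90-base windows identical in Acot1 and Acot2, as the one where Acot3 differed most. The 0 differences of Acot2 were thus set in advance, and the 21 of Acot3 are the most found. Acot4 had 28, and the stretch does not stand for the whole coding sequence. How the authors' counting divided reads that match 2 genes is not given in the sources used here, so opposite values of Acot1 and Acot2 are uncertain. Acot3 and Acot4 both overlap Gm49366 on the same strand and 4732463B04Rik on the other strand. Gm49366 had counts in 1 of 30 libraries (at most 6), and 4732463B04Rik had 0 to 32 counts per library. The type II members also overlap genes on the opposite strand, and whether the counting used strand is not given in the sources used here.

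Library totals lay between 17 and 24.3 M counts. Mitochondrial transcripts and their nuclear copies took very uneven shares of them, on average 45.0% in UB, 50.9% in MC and 67.2% in NC livers, and 18.8% in Uro, 66.1% in HFD and 68.4% in NFD livers. The shares of Uro (14.1 to 21.6%) and HFD (59.1 to 82.3%) did not overlap. This left 3.14 to 19.7 M counts for all other genes. Of 12 hepatocyte markers, 11 were found in the count table and all 11 were detected in every group, as the liver label implies.

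Per length, Acot13 was the most abundant member in every group. Its mean level was 78.7 TPM in UB, 49.1 in MC and 23.1 in NC livers, and 157 TPM in Uro, 42.9 in HFD and 19.9 in NFD livers (TPM, the authors' length-scaled abundance). Acot9 was the least abundant in every group, with group means from 0.432 TPM in NFD to 2.54 TPM in Uro livers, and its counts ran from 1 to 172 per library. In HFD livers Acot9 (1.04 TPM), Acot3 (1.17 TPM) and Acot7 (1.36 TPM) were close together. TPM values are relative to all transcripts, mitochondrial ones included, so the make-up of the family was compared as a share of the summed TPM of the 9 members.

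**Figure D1:**
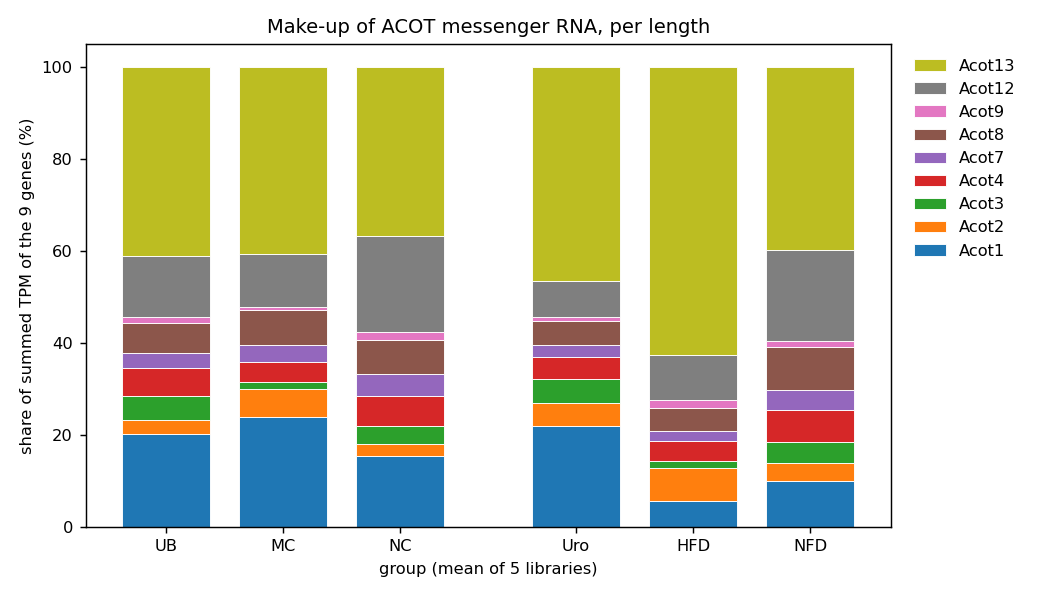
Mean share of each of the 9 members in their summed TPM (percent, 5 libraries per group), with groups on the x axis and genes stacked from Acot1 at the bottom to Acot13 at the top. Acot13 took the largest share in each group, 62.6% in HFD livers, and Acot1 took 21.9% in Uro against 5.64% in HFD livers.

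Acot13 took 46.5 ± 8.61% of the summed TPM in Uro, 62.6 ± 4.84% in HFD and 39.8 ± 9.73% in NFD livers (SD, n = 5 each). Acot1 took 15.2 to 33.0% in Uro, 2.95 to 7.73% in HFD and 3.51 to 14.0% in NFD livers. The Acot1 shares of Uro and HFD did not overlap. The 4 type I members together took 36.9 ± 6.71% in Uro, 18.8 ± 2.11% in HFD and 25.5 ± 9.67% in NFD livers. In the prevention study the 4 type I members were at 34.4 ± 5.28% in UB, 35.8 ± 5.32% in MC and 28.4 ± 8.34% in NC livers, while the share of Acot3 alone was 4.10 to 6.84% in UB, 1.04 to 1.62% in MC and 2.36 to 7.14% in NC livers. The Acot3 shares of NC overlapped those of UB. Acot12 took 13.4 ± 3.69% in UB, 11.4 ± 2.44% in MC and 20.8 ± 2.90% in NC livers. These shares are given without a test.

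**Figure D2:**
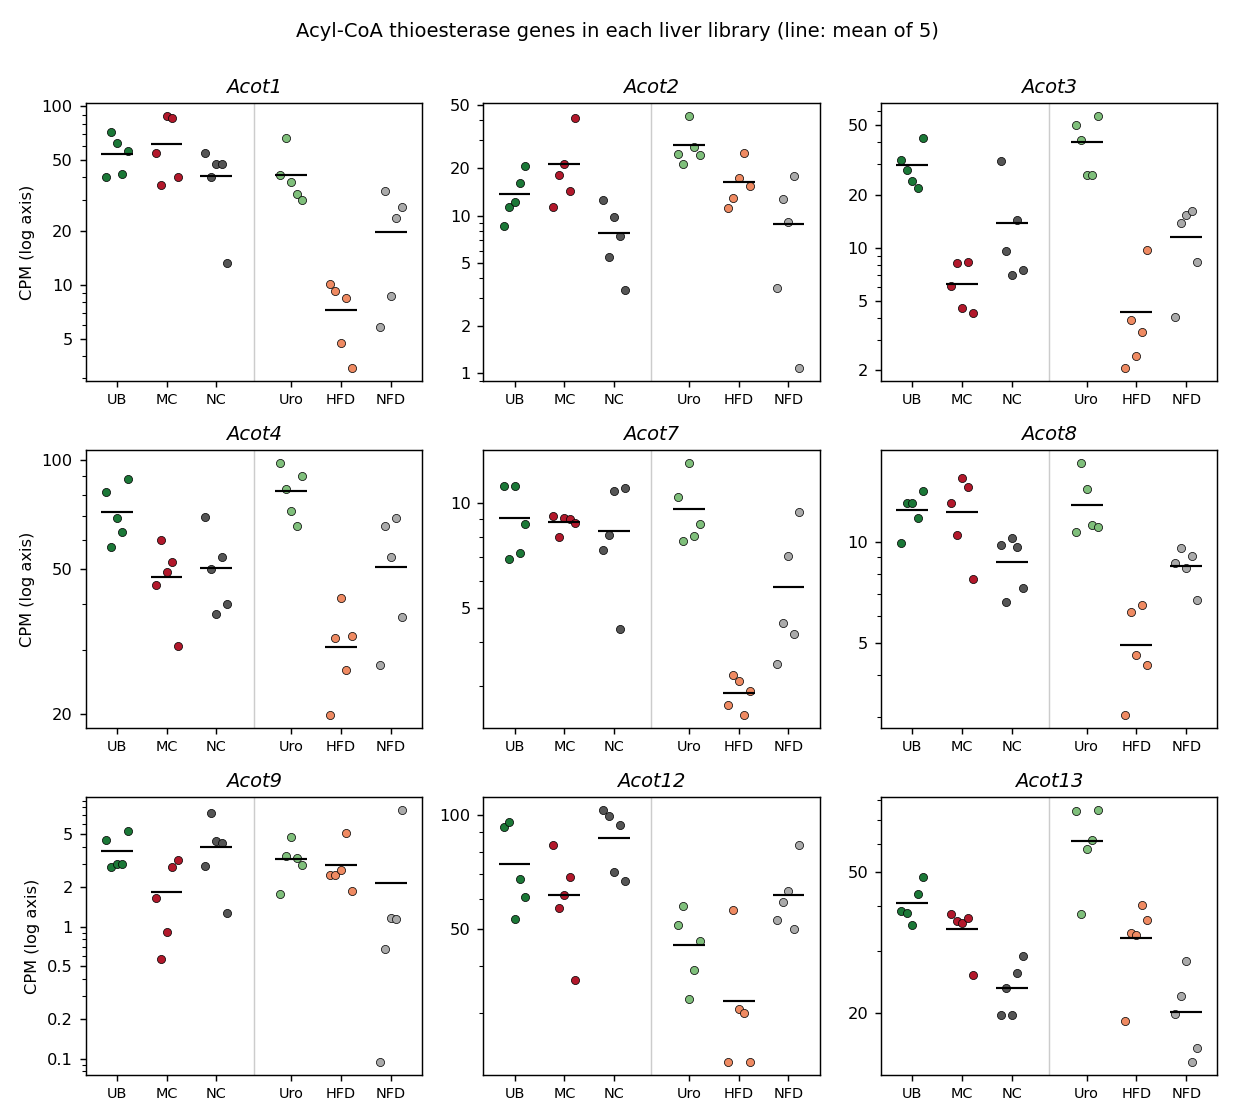
Level of each member in every library, in CPM on a log axis that differs between panels, with one point per library in replicate order and a line at the mean of 5. Groups run UB, MC and NC (prevention study), then Uro, HFD and NFD (treatment study). Acot3 lies at 21.98 to 42.3 CPM in UB against 4.25 to 8.32 CPM in MC, and the 5 HFD libraries hold the lowest means of Acot1, Acot3, Acot4, Acot7, Acot8 and Acot12.

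In UB compared with MC livers, which received the same diet, Acot3 stood apart from the other members. It measured 31.6, 27.9, 24.1, 21.98 and 42.3 CPM (counts scaled to a common library size after TMM) in UB and 6.02, 8.14, 4.54, 8.32 and 4.25 CPM in MC livers. Every UB library was above every MC library. The log2 fold change was 2.24 ± 0.37 (SE), a 4.71-fold difference, and it is the value for which Acot3 was chosen. The ranges of the other 8 members overlapped. The share of all genes without overlap is not given here or in the comparisons below, so overlap is a description of single members. Over all genes 0.607% were called by edgeR, from which nothing is read here, since this contrast chose Acot3.

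The neighbouring Acot4 measured 81.3, 57.7, 69.0, 63.2 and 88.6 CPM in UB and 45.3, 60.2, 49.2, 52.2 and 30.8 CPM in MC livers. Only UB replicate 2 lay below the highest MC library, and the log2 fold change of Acot4 was 0.60 ± 0.19. Acot1 measured 40.0, 71.8, 62.5, 42.0 and 56.0 CPM in UB and 54.6, 36.5, 88.4, 86.4 and 40.5 CPM in MC livers. Its ranges overlapped widely, with a log2 fold change of -0.17 ± 0.32. Acot2 had a log2 fold change of -0.62 ± 0.36, and the 5 type II members ran from 0.02 (Acot8) to 1.02 (Acot9). The median over the 9 members was 0.24, against 0.00 over all genes tested.

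Other measurements moved alongside in UB and MC livers. The summed level of 19 circadian clock genes was 392 to 436 CPM in UB and 234 to 319 CPM in MC livers, without overlap. The clock genes did not move as one. The log2 fold change was above 0 for 12 of the 19, and Bmal1 (-2.93), Npas2 (-2.73) and Clock (-0.67) were among those below 0. The 11 hepatocyte markers summed to 16500 to 25990 CPM in UB and 23850 to 42830 CPM in MC livers. The 5 adipocyte markers summed to 12.2 to 49.6 CPM in UB and 22.3 to 172 CPM in MC livers, most of it Cfd, while Adipoq, Lep and Retn were at 0 in both groups. The 5 brown adipocyte markers, which include Elovl3, summed to 26.1 to 65.1 CPM in UB and 53.9 to 312 CPM in MC livers. In UB livers Elovl3 alone averaged 40.2 CPM and Ucp1 was at 0, so the sum does not stand for the whole list. The part of the clock genes and these markers in the level of Acot3 was not tested. In whole liver, fewer cells of a type and less RNA per cell cannot be told apart.

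MC and NC mice differed in diet over 10 weeks, and both had water in place of UB-NPs. Of the 8 members other than Acot3, Acot2 and Acot13 rose and the other 6 did not pass. Over all genes 12.2% were called, 6.65% higher and 5.53% lower. The median log2 fold change over the 9 members was 0.07, against 0.03 over all genes. Mitochondrial shares were 38.6 to 69.1% in MC and 61.5 to 73.4% in NC livers, and hepatocyte markers summed to 23850 to 42830 CPM in MC and 25820 to 42800 CPM in NC livers. Of 11 hepatocyte markers 3 rose and 3 fell. The Kupffer cell marker Timd4 fell to 3.15 CPM in MC, against 12.3 CPM in NC livers (edgeR adjusted p = 0.0026), and Vsig4 to 9.498 CPM in MC, against 38.0 CPM in NC livers (edgeR adjusted p = 0.0077). Of 7 Kupffer cell markers 2 fell and the other 5 did not pass, of which Csf1r stood above 0 (0.48). The adipocyte marker Cfd was at 28.6 CPM in UB, 107.6 CPM in MC and 0.86 CPM in NC livers (edgeR adjusted p = 0.0029 in UB minus NC and 0.00042 in MC minus NC). Cfd was the only 1 of 5 adipocyte markers tested. Adipoq went the other way, with counts in NC livers and 0 in UB and MC livers. Lep and Retn were at 0 in UB, MC and NC livers. The 5 markers summed to at most 2.41 CPM in NC livers. The brown adipocyte marker Cidea was at 1.006 CPM in UB, 4.58 CPM in MC and 0 in NC livers. Of 3 brown adipocyte markers tested, Cidea alone rose in MC minus NC and 2 did not pass. In UB minus NC Cidea rose and Elovl3 fell, with Elovl3 at 40.2 CPM in UB and 180 CPM in NC livers (edgeR adjusted p = 0.015). The part of these markers in the member values was not tested, and the mitochondrial share entered as a covariate below.

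Acot2, the mitochondrial type I enzyme, measured 11.4, 18.0, 21.1, 14.4 and 41.3 CPM in MC and 12.5, 5.45, 9.85, 7.42 and 3.39 CPM in NC livers. The ranges met at MC replicate 1, and MC replicate 5 was the highest. For Acot2 this came to 1.46 ± 0.37 on the log2 scale (edgeR adjusted p = 0.017, from a quasi-likelihood test with Benjamini-Hochberg correction). It was 1.36 without NC replicate 2 (edgeR adjusted p = 0.0534) and 1.34 with replicate number as a block (edgeR adjusted p = 0.0546).

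Acot13, the long-chain thioesterase near mitochondria, measured 38.0, 36.4, 35.9, 37.0 and 25.6 CPM in MC and 19.7, 23.5, 19.7, 26.0 and 28.9 CPM in NC livers. All MC libraries but replicate 5 exceeded every NC library, and the log2 fold change was 0.55 ± 0.16 (edgeR adjusted p = 0.029). This call ended without NC replicate 1, 2 or 3 or MC replicate 1, 2, 3 or 4 (edgeR adjusted p from 0.0545 to 0.0778). With the share of mitochondrial counts as a covariate Acot13 did not pass either (0.31, edgeR adjusted p = 0.428), where 2.88% of all genes were called. In UB compared with NC livers Acot13 was the 1 member of 8 that rose, at 38.9, 38.4, 35.4, 43.3 and 48.4 CPM in UB libraries, all above those of NC. There the log2 fold change was 0.79 ± 0.16 (edgeR adjusted p = 0.0045), and 7.8% of all genes were called (4.47% higher, 3.33% lower). Leaving out any 1 library kept the call of Acot13 in UB minus NC, and the covariate ended it (0.47, edgeR adjusted p = 0.473). The fit with the covariate called 0.53% of all genes in UB minus NC. Mitochondrial shares of UB (41.8 to 52%) and NC (61.5 to 73.4%) livers did not overlap. The part of the share cannot be told apart from the group there.

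Acot3, given without a test, measured 31.2, 9.62, 6.95, 14.3 and 7.42 CPM in NC livers, against the MC and UB values above. NC replicate 1 reached the UB range, and the other 4 NC libraries lay below every UB library. The log2 fold change of Acot3 was -1.14 ± 0.36 in MC minus NC and 1.10 ± 0.35 in UB minus NC. Acot1 was at 61.3 ± 24.8 CPM in MC and 40.7 ± 16.1 CPM in NC livers (SD, n = 5 each), and its 0.59 ± 0.32 in log2 did not pass (edgeR adjusted p = 0.256). Acot12, the liver acetyl-CoA hydrolase, was at 61.5 ± 17.1 CPM in MC and 86.7 ± 16.8 CPM in NC livers (log2 fold change -0.50 ± 0.21, edgeR adjusted p = 0.121). With replicate number as a block, Acot12 was lower in MC and passed the test at -0.51 (edgeR adjusted p = 0.0337).

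Genes of neighbouring pathways moved as follows in MC minus NC, where 6.65% of all genes were called higher and 5.53% lower. Of 15 measured acyl-CoA synthetases, which make acyl-CoA from fatty acids, 6 rose, 0 fell and 9 did not pass, with a median log2 fold change of 0.54. Among them, Acsm1 was at 99.96 ± 18.7 CPM in MC and 60.3 ± 22.1 CPM in NC livers (edgeR adjusted p = 0.020). Of 15 other genes induced by PPARA, 7 rose and 0 fell (median 0.77), including the fatty aldehyde dehydrogenase Aldh3a2, at 382 ± 50.8 CPM in MC and 86.0 ± 12.9 CPM in NC livers (edgeR adjusted p = 8.97e-08). Of 15 genes of coenzyme A synthesis and breakdown, 4 rose and 1 fell, led by the pantetheinase Vnn1 at 94.3 ± 20.9 CPM in MC and 21.5 ± 4.39 CPM in NC livers (edgeR adjusted p = 1.84e-07). The peroxisomal beta-oxidation list of 17 had 1 rise and 1 fall, and the mitochondrial list of 22 had 1 rise and 2 falls.

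**Figure D3:**
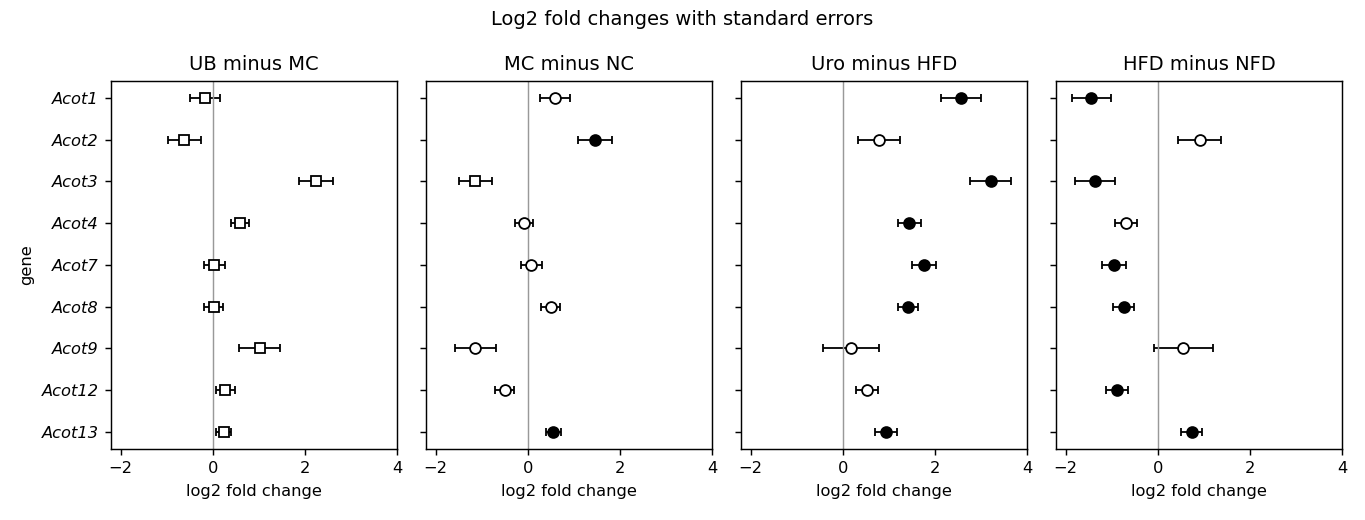
Log2 fold change of each member with its standard error (edgeR, 15 libraries per study) in UB minus MC, MC minus NC, Uro minus HFD and HFD minus NFD. Filled circles passed the test (adjusted p under 0.05), open circles did not, and open squares are descriptions without a test. All 9 members lie to the right of 0 in Uro minus HFD, and Acot3 has the largest value there, 3.20.

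The obese mice on continued high-fat diet showed another pattern. In HFD compared with NFD livers, Acot1, Acot3, Acot7, Acot8 and Acot12 fell, 5 of 9 members, while Acot13 rose and Acot2, Acot4 and Acot9 did not pass. Over all genes 13.2% were called, 5.96% lower and 7.19% higher. The median log2 fold change over the members was -0.74, against 0.03 over all genes. Mitochondrial shares of the HFD (59.1 to 82.3%) and NFD (56.2 to 81.0%) libraries overlapped. With that share as a covariate 7 of 9 members and 14.19% of all genes were called. In limma on log2(TPM + 1), 0 of 9 members passed in HFD minus NFD, with 3 at an unadjusted p under 0.05 and a median over all genes of 0.15, against 6 by edgeR and 7 by DESeq2. Of all 14163 genes limma called 625, edgeR 1863 and DESeq2 2618.

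Acot1 measured 10.1, 9.26, 4.76, 8.46 and 3.42 CPM in HFD and 5.82, 33.8, 8.65, 23.7 and 27.5 CPM in NFD livers. NFD replicates 1 and 3 lay within the HFD range and the other 3 were above it. Acot1 had -1.44 ± 0.43 on the log2 scale (edgeR adjusted p = 0.034). The call ended without NFD replicate 2, 4 or 5 or HFD replicate 3, 4 or 5 (edgeR adjusted p from 0.0586 to 0.0877).

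Acot3 measured 2.06, 3.87, 2.42, 3.30 and 9.75 CPM in HFD and 4.04, 13.9, 15.3, 16.1 and 8.25 CPM in NFD livers. HFD replicate 5 reached the NFD range, and the other 4 lay below it. The log2 fold change of Acot3 was -1.36 ± 0.43 (edgeR adjusted p = 0.045). The call ended without NFD replicate 2, 3, 4 or 5 or HFD replicate 1, 2, 3 or 4 (edgeR adjusted p from 0.0586 to 0.102). Acot4 was at 30.6 ± 8.14 CPM in HFD and 50.6 ± 18.2 CPM in NFD livers, and its log2 fold change of -0.69 ± 0.24 did not pass the test (edgeR adjusted p = 0.067). Acot4 passed without NFD replicate 1 or 5 or HFD replicate 3 (edgeR adjusted p from 0.0234 to 0.0445).

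The peroxisomal Acot8 and the cytosolic Acot7 were the members whose ranges did not overlap, with no share over all genes to weigh this against. Acot8 measured 3.04, 6.19, 4.59, 6.50 and 4.28 CPM in HFD and 8.64, 9.60, 8.38, 9.06 and 6.69 CPM in NFD livers (log2 fold change -0.74 ± 0.22, edgeR adjusted p = 0.032). Acot7 measured 2.65, 3.22, 3.11, 2.48 and 2.90 CPM in HFD and 3.47, 4.55, 7.08, 4.24 and 9.44 CPM in NFD livers (log2 fold change -0.95 ± 0.27, edgeR adjusted p = 0.023). The call of Acot8 ended without NFD replicate 1, 2 or 3 or HFD replicate 1, 3 or 5 (edgeR adjusted p from 0.0513 to 0.0848). That of Acot7 ended without NFD replicate 3 or 5 or HFD replicate 4 (edgeR adjusted p from 0.0573 to 0.0609).

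Acot12 measured 22.3, 56.2, 30.8, 30.04 and 22.3 CPM in HFD and 52.8, 58.9, 62.9, 50.1 and 83.1 CPM in NFD livers. HFD replicate 2 lay within the NFD range. The fall of Acot12 was -0.89 ± 0.24 in log2 (edgeR adjusted p = 0.018), and the call ended without HFD replicate 5 (-0.78, edgeR adjusted p = 0.0607).

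Acot13 ran the other way, at 19.0, 33.6, 33.3, 40.4 and 36.7 CPM in HFD and 19.9, 22.3, 28.0, 14.5 and 15.9 CPM in NFD livers. All HFD libraries but replicate 1 were above every NFD library, and the log2 fold change was 0.74 ± 0.23 (edgeR adjusted p = 0.039). The call of Acot13 ended without NFD replicate 1, 2, 4 or 5 or HFD replicate 2, 3, 4 or 5 (edgeR adjusted p from 0.0517 to 0.103), and with replicate number as a block (edgeR adjusted p = 0.0784). Acot2 was at 16.4 ± 5.35 CPM in HFD and 8.81 ± 6.76 CPM in NFD livers (log2 fold change 0.91 ± 0.47, edgeR adjusted p = 0.214). Acot9 was at 2.91 ± 1.26 CPM in HFD and 2.14 ± 3.11 CPM in NFD livers (0.56 ± 0.63, edgeR adjusted p = 0.606). NFD replicate 5 alone had 7.65 CPM of Acot9, and without that library the log2 fold change was 1.93 (edgeR adjusted p = 0.00941).

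Of 22 mitochondrial genes of beta-oxidation and ketogenesis, 12 fell in HFD minus NFD, 0 rose and 10 did not pass (median log2 fold change -0.64). Cpt1a (0.47) and Acadm (0.08) were above 0 among those that did not pass. The enoyl-CoA hydratase Echs1, which fell, was at 31.7 ± 6.17 CPM in HFD and 81.9 ± 24.9 CPM in NFD livers (edgeR adjusted p = 0.000473). Of 17 peroxisomal genes, 2 fell and 0 rose (median -0.28). In HFD minus NFD 5.96% of all genes were called lower and 7.19% higher. Of 15 other PPARA-induced genes, 3 fell and 1 rose, namely Aldh3a2 at 281 ± 63.8 CPM in HFD and 82.5 ± 26.0 CPM in NFD livers (edgeR adjusted p = 4.75e-05). Of 8 PPAR receptor and coactivator genes, 1 fell and 1 rose. Ppara was at 6.64 ± 1.60 CPM in HFD and 14.5 ± 3.16 CPM in NFD livers (log2 fold change -1.09 ± 0.22, edgeR adjusted p = 0.0029), and Pparg at 9.63 ± 2.44 CPM in HFD and 4.52 ± 1.52 CPM in NFD livers (1.15 ± 0.27, edgeR adjusted p = 0.0075). Nudt7, a peroxisomal enzyme that cleaves coenzyme A, was at 24.6 ± 10.7 CPM in HFD and 69.1 ± 20.6 CPM in NFD livers (edgeR adjusted p = 0.0067). Of 11 hepatocyte markers, 4 also fell and 0 rose (median -0.42), and they summed to 14630 to 27690 CPM in HFD and 23500 to 36700 CPM in NFD livers. Of 19 circadian clock genes 5 rose and 3 fell, with Dbp at 58.2 ± 18.4 CPM in HFD and 13.95 ± 6.30 CPM in NFD livers (edgeR adjusted p = 4.48e-05). The part of the hepatocyte markers and clock genes in the fall of the thioesterases was not tested.

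The diet effects of both studies were compared directly in 1 fit of all 30 libraries. For Acot1 and Acot8, 2 of 8 members, the effect was lower in the treatment study, where 5.42% of all genes were called (3.42% lower, 2.0% higher). The diet effect on Acot1 was 2.07 log2 units lower in HFD minus NFD than in MC minus NC (-2.07 ± 0.58, edgeR adjusted p = 0.036). For Acot8 the difference was -1.28 ± 0.30 (edgeR adjusted p = 0.011) and for Acot7 -1.06 ± 0.35 (edgeR adjusted p = 0.065). That of Acot1 lost the call without NC replicate 2, MC replicate 3 or 4, NFD replicate 2 or HFD replicate 3, 4 or 5 (edgeR adjusted p from 0.05 to 0.0759). With the mitochondrial share as a covariate neither Acot1 nor Acot8 passed, at -1.99 for Acot1 (edgeR adjusted p = 0.132) and -0.93 for Acot8 (edgeR adjusted p = 0.0952). In that fit 1.26% of all genes were called. Diet duration and the set of mice both differ between the studies and cannot be told apart.

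UB-NPs in the obese mice went with higher levels of most members. In Uro compared with HFD livers Acot1, Acot3, Acot4, Acot7, Acot8 and Acot13 rose, 6 of 9 members, and Acot2, Acot9 and Acot12 did not pass. Over all genes 27.1% were called, 15.3% higher and 11.7% lower. The median log2 fold change over the members was 1.41, against -0.08 over all genes. The 6 calls held when any 1 library was left out. The HFD libraries are shared with HFD minus NFD, as the MC libraries are between UB minus MC and MC minus NC.

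Acot3 measured 49.9, 40.9, 26.0, 25.8 and 56.3 CPM in Uro livers, against the 2.06 to 9.75 CPM of HFD livers given above. Its lowest Uro library was above the highest HFD library. That gave Acot3 a log2 fold change of 3.20 ± 0.44, a 9.22-fold rise (edgeR adjusted p = 5.67e-05), in libraries that the rule did not use. Acot1 measured 41.1, 66.2, 37.9, 32.5 and 29.8 CPM in Uro and 3.42 to 10.1 CPM in HFD livers. The groups did not overlap, and the log2 fold change of Acot1 was 2.57 ± 0.43, a 5.92-fold rise (edgeR adjusted p = 0.00034). Acot4 measured 97.96, 82.9, 72.2, 65.6 and 90.5 CPM in Uro and 19.8, 32.3, 41.7, 26.3 and 32.8 CPM in HFD livers, again without overlap (1.44 ± 0.25, edgeR adjusted p = 0.00017). The remaining type I member, Acot2, was at 27.9 ± 8.55 CPM in Uro and 16.4 ± 5.35 CPM in HFD livers (0.79 ± 0.46, edgeR adjusted p = 0.221).

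Among the type II members, Acot7 measured 10.4, 7.78, 13.01, 8.06 and 8.72 CPM in Uro and 2.48 to 3.22 CPM in HFD livers (1.76 ± 0.26, edgeR adjusted p = 4.94e-05). Acot8 measured 10.7, 17.2, 14.4, 11.2 and 11.1 CPM in Uro and 3.04 to 6.50 CPM in HFD livers (1.41 ± 0.22, edgeR adjusted p = 7.28e-05). Both were without overlap. Acot13 measured 74.2, 38.0, 58.3, 61.7 and 74.9 CPM in Uro livers, of which replicate 2 alone lay within the HFD range of 19.0 to 40.4 CPM (0.94 ± 0.23, edgeR adjusted p = 0.0044). Acot12 was at 45.4 ± 9.79 CPM in Uro and 32.3 ± 14.0 CPM in HFD livers (0.52 ± 0.24, edgeR adjusted p = 0.113). Without HFD replicate 2, which held 56.2 CPM, Acot12 passed the test at 0.81 (edgeR adjusted p = 0.00719). Acot9 was at 3.24 ± 1.08 CPM in Uro and 2.91 ± 1.26 CPM in HFD livers (0.18 ± 0.60, edgeR adjusted p = 0.856).

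The mitochondrial share separated Uro from HFD and NFD libraries completely. With it as a covariate, edgeR called 0 of 9 members in Uro minus HFD (3 at an unadjusted p under 0.05) and 2 of 14163 genes in all. The log2 fold changes of Acot1 (3.45, edgeR adjusted p = 0.316), Acot7 (1.77, edgeR adjusted p = 0.415) and Acot3 (1.58, edgeR adjusted p = 0.649) stayed positive there, that of Acot4 was 0.14 (edgeR adjusted p = 0.953) and that of Acot13 was -0.56 (edgeR adjusted p = 0.75). When mitochondrial genes and their copies were removed before scaling, 6 members were called as before. The part of the share in these rises cannot be told apart from the group.

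In Uro compared with NFD livers Acot2, Acot3, Acot4, Acot7, Acot8 and Acot13 rose, 6 of 9 members, where 28.4% of all genes were called (16.1% higher, 12.3% lower). This comparison shares the Uro libraries with the one before it and holds no HFD library. Acot3 was at 39.8 ± 13.8 CPM in Uro and 11.5 ± 5.19 CPM in NFD livers (1.84 ± 0.42, edgeR adjusted p = 0.0034), and Acot2 at 27.9 ± 8.55 CPM in Uro and 8.81 ± 6.76 CPM in NFD livers (1.70 ± 0.47, edgeR adjusted p = 0.013). Both were without overlap, as were Acot13 (1.67 ± 0.24, edgeR adjusted p = 2.52e-05) and Acot8 (0.67 ± 0.22, edgeR adjusted p = 0.024). Acot1 missed the threshold at 1.13 ± 0.41 (edgeR adjusted p = 0.0501) and passed without NFD replicate 2 (1.42, edgeR adjusted p = 0.0199). Acot12 stood at -0.37 ± 0.24 in log2 (edgeR adjusted p = 0.261), and at 1.48 on the log2(TPM + 1) scale, where the median of all genes was 0.76.

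Some of these calls rested on single libraries. In Uro minus NFD, Acot4 lost the call without NFD replicate 1 or Uro replicate 1 or 5 (edgeR adjusted p from 0.0508 to 0.06). Acot7 lost it without NFD replicate 1, 2 or 4 or Uro replicate 3 (edgeR adjusted p from 0.0527 to 0.0747), and Acot8 without Uro replicate 2 or 3 (edgeR adjusted p of 0.0758 and 0.0561). Acot9 passed without NFD replicate 5 (2.11, edgeR adjusted p = 0.0016). With the mitochondrial share as a covariate, edgeR called 0 of 9 members in Uro minus NFD (1 at an unadjusted p under 0.05) and 0 of 14163 genes in all.

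Of 22 mitochondrial beta-oxidation and ketogenesis genes, 20 rose in Uro minus HFD, 0 fell and 2 did not pass (median log2 fold change 1.02), among them the thiolase Acaa2 at 510 ± 77.2 CPM in Uro and 94.9 ± 23.4 CPM in HFD livers (edgeR adjusted p = 1.2e-06). In Uro minus NFD 9 of the 22 rose, Etfdh fell (-0.73, edgeR adjusted p = 0.016) and 12 did not pass (median 0.32). Of 17 peroxisomal genes, 11 rose and 0 fell in Uro minus HFD (median 0.74) and 8 rose and 0 fell in Uro minus NFD (median 0.49), including the bifunctional enzyme Hsd17b4 at 278 ± 14.9 CPM in Uro and 121 ± 26.4 CPM in HFD livers (edgeR adjusted p = 8.23e-05). Of 16 acyl-CoA synthetases, 7 rose and 0 fell in Uro minus HFD (median 0.14), and 5 rose and 1 fell in Uro minus NFD (median 0.16). Among all genes 15.3% were called higher in Uro minus HFD and 16.1% in Uro minus NFD. Acsl5, which activates long-chain fatty acids, was at 55.5 ± 9.78 CPM in Uro and 22.4 ± 3.05 CPM in HFD livers (edgeR adjusted p = 5.32e-05).

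In Uro minus HFD 15.3% of all genes were called higher and 11.7% lower, beside which the counts of each list can be read. Of 15 genes of coenzyme A synthesis and breakdown, 6 rose and 1 fell in Uro minus HFD. Coasy, the last enzyme of coenzyme A synthesis, was at 55.8 ± 6.91 CPM in Uro and 13.96 ± 4.604 CPM in HFD livers (edgeR adjusted p = 2.24e-06). Of 15 other PPARA-induced genes, 9 rose and 0 fell (median 1.201), among them the lipid droplet coat gene Plin2 at 308 ± 64.8 CPM in Uro and 80.3 ± 27.9 CPM in HFD livers (edgeR adjusted p = 2.25e-05). Of 8 PPAR receptor and coactivator genes, 0 rose and 1 fell, the coactivator Ppargc1a, at 2.30 ± 0.80 CPM in Uro and 5.25 ± 2.02 CPM in HFD livers (edgeR adjusted p = 0.015). Hepatocyte markers rose alongside, 6 of 11 with 0 falls (median 0.66), and they summed to 31410 to 48000 CPM in Uro and 14630 to 27690 CPM in HFD livers, without overlap. Of 19 circadian clock genes 3 rose and 4 fell, with Bmal1 at 0.42 ± 0.19 CPM in Uro and 2.08 ± 0.77 CPM in HFD livers (edgeR adjusted p = 0.00016). Npas2 was at 0.022 ± 0.050 CPM in Uro and 0.999 ± 0.31 CPM in HFD livers (edgeR adjusted p = 0.00049). The part of the hepatocyte markers and clock genes in the rise of the thioesterases was not tested.

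Both UB-NP comparisons can be set side by side for the members. On the log2 scale Acot3 differed by 3.20 in Uro minus HFD and by 2.24 in UB minus MC. Acot4 stood at 1.44 in Uro minus HFD and 0.60 in UB minus MC. Acot1 stood at 2.57 in Uro minus HFD and -0.17 in UB minus MC, Acot8 at 1.41 in Uro minus HFD and 0.02 in UB minus MC, and Acot7 at 1.76 in Uro minus HFD and 0.03 in UB minus MC. Acot13 stood at 0.94 in Uro minus HFD and 0.24 in UB minus MC, Acot12 at 0.52 in Uro minus HFD and 0.27 in UB minus MC, and Acot2 at 0.79 in Uro minus HFD and -0.62 in UB minus MC. Acot9 had the smaller value in Uro minus HFD, 0.18, and 1.02 in UB minus MC. These differences between the studies were not tested, since UB minus MC was the contrast used to choose Acot3. By mean level Acot3 ordered the groups as Uro, UB, NC, NFD, MC and HFD, with neighbouring groups overlapping at each step. Acot1 ordered them as MC, UB, Uro, NC, NFD and HFD, again with every neighbouring pair overlapping.

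In the authors' deposited table of calls, Acot3 was listed as changed in all 6 comparisons, down in MC against NC and in HFD against NFD and up in the other 4. Its calls within the prevention study rest on the libraries used to choose Acot3, so they are a description only. Acot1 was listed by the authors as down in HFD against NFD and up in Uro against HFD and against NFD. The authors' deposited table lists Acot2 as up in MC against NC and in Uro against NFD, Acot4, Acot7 and Acot8 as up in Uro against HFD, and Acot13 as up in Uro against NFD. Acot9 and Acot12 are not among its genes.

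Acot3 and Acot4, the neighbours 3542 bases apart, varied together more than any other pair of members. Over the 30 libraries the Pearson correlation of their log2(CPM + 1) levels was 0.90, and it was 0.76 for the deviations from the group means. The points share library depth and the mitochondrial share, and they include the libraries used to choose Acot3. Acot1 was closest to Acot8 among members (0.80, within groups 0.42), and near 0.19 with Acot2, its closest copy.

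**Figure D4:**
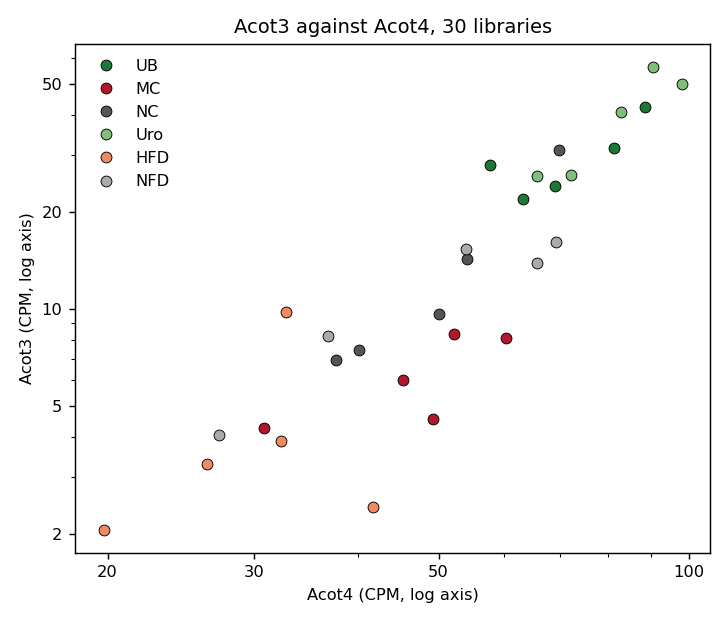
Level of Acot3 against that of Acot4 in each of the 30 libraries (CPM, both axes logarithmic), coloured by group. The 5 Uro and 5 UB libraries lie at the upper right, with Acot3 at 21.98 CPM or above, together with NC replicate 1 (31.2 CPM of Acot3 and 69.7 CPM of Acot4), and the lowest point is an HFD library at 2.06 CPM of Acot3 and 19.8 CPM of Acot4.

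Outside the family, the genes most like Acot1 over the 30 libraries were Ehhadh, the peroxisomal bifunctional enzyme (Pearson r = 0.95, within groups 0.78), Adrm1 (0.88, within groups 0.63), Vcp (0.88, within groups 0.55) and Crat, the carnitine acetyltransferase (0.88, within groups 0.79), among 7598 genes compared. Those most like Acot4 were Abcd3, a fatty acid transporter of the peroxisomal membrane (0.85, within groups 0.69), Mmadhc (0.81, within groups 0.67), Acadl, the long-chain acyl-CoA dehydrogenase (0.81, within groups 0.62), and Ces1f (0.80, within groups 0.55). Those most like Acot3 were the glutathione transferases Gsta4 (0.79, within groups 0.19) and Gsta2 (0.79, within groups 0.48), Selenoo (0.78, within groups 0.37) and Ces1d (0.75, within groups 0.36). Over the 30 libraries, which include those used to choose Acot3, no gene compared outside the family was as close to Acot3 as Acot4 (0.90). The within-group correlations were not ranked over all genes.

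The 250 bases upstream of the annotated starts of Acot3 and Acot4, which varied together, and of Acot1 are printed here (GRCm39, plus strand, 5′ to 3′), with CCAAT on either strand in capitals. The windows are chr12:84098668-84098917, chr12:84084831-84085080 and chr12:84056006-84056255.
Acot3: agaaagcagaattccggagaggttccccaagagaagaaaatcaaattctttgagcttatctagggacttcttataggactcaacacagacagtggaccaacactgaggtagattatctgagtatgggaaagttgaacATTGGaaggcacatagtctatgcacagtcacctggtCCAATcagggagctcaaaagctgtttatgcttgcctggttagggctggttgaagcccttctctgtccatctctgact
Acot4: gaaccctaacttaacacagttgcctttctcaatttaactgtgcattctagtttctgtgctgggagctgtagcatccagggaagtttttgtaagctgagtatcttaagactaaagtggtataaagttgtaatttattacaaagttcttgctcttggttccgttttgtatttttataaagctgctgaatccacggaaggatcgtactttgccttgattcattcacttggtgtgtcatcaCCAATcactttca
Acot1: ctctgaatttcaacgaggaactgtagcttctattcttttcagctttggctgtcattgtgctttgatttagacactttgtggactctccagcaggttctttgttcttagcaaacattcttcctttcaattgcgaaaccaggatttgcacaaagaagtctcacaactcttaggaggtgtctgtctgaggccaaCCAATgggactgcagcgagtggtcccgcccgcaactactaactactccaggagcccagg
With the last base before the start as -1, CCAAT began at -77 on the plus strand and -113 on the minus strand of Acot3, at -13 in Acot4 and at -59 in Acot1. The CCAAT motif was held by 36.5% of 21757 windows of the same length upstream of genes. The TATA box TATAAA, held by 11.9% of all windows, occurred in that of Acot4 alone among these 3, and CACGTG, held by 6.3%, in none of them. The PPAR half-site AGGTCA, searched on both strands and held by 13.1% of all windows, was not in these 3. A pair of half-sites in direct repeat with 1 base between them, allowing up to 2 mismatches, was held by 2.9% of all windows and was not in these 3 either. Among the members such a pair was found in the window of Acot12, from -55 to -43 with 1 mismatch and from -220 to -208 with 2. A match describes letters only, and no match says only that they are not in this window.

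Acot5, the remaining close copy in the cluster, had at most 9 counts in any library and Acot10 had 0 in all 30, so neither was tested. Of 5 other thioesterase genes that could be tested (Acot6, Acot11, Them4, Them6 and Baat), Acot11 rose in UB minus NC and Them6 in Uro minus NFD. That is 1 of 5 each, where 4.47% of all genes were called higher in UB minus NC and 16.1% in Uro minus NFD. In MC minus NC, HFD minus NFD, Uro minus HFD and the difference of diet effects 0 of 5 passed. Acot11, also called Them1, was at 3.01 ± 1.19 CPM in UB and 1.13 ± 0.47 CPM in NC livers (1.40 ± 0.42, edgeR adjusted p = 0.041). Them6 was at 3.49 ± 1.21 CPM in Uro and 0.94 ± 1.21 CPM in NFD livers (1.95 ± 0.62, edgeR adjusted p = 0.023). Baat, which conjugates bile acids to amino acids and is related to the type I enzymes, was at 90.3 ± 18.2 CPM in Uro and 60.9 ± 28.2 CPM in HFD livers (0.59 ± 0.26, edgeR adjusted p = 0.089).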

How the data were processed

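The authors deposited a table of expected counts, one value per gene for each of 30 libraries, unscaled. The authors' deposited TPM table gives length-scaled abundance. The build GRCm39 and the tools StringTie, HISAT2, fastp and DESeq2 are named, with no version or role, per the submitters' processing notes. Between 4.02% and 7.03% of genes had fractional counts in a library, and counts were rounded. The authors' deposited table of calls gives no thresholds.

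Each study of 15 libraries was fitted with edgeR 4.0.16 in R 4.3.3 (filterByExpr by group, TMM, robust quasi-likelihood F-test, two-sided), with Benjamini-Hochberg adjustment over all genes tested and a threshold of 0.05. The difference of diet effects was tested in 1 fit of 30 libraries. Standard errors were taken as the size of the log2 fold change over the root of its F statistic. CPM used TMM factors of all 30 libraries. The procedure was tested on simulated counts. Alternatives used DESeq2 1.42.0, limma 3.58.1 on log2(TPM + 1) and log2(TPM + 0.1), no filter, the mitochondrial share as a covariate, a replicate block, removal of mitochondrial genes, and each library left out. The mitochondrial share counts 37 genes and 21 nuclear copies found by sequence match. Of 57180 IDs, 56620 were in GENCODE release M39, which gave positions and sequences (Python 3.11.15, Biopython 1.88, NumPy 2.4.6, pandas 2.3.3, matplotlib 3.10.9).

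Members, gene lists and tests were chosen with earlier results of these data known. Named genes are the members, other thioesterases, the called genes with the smallest adjusted p of each pathway list (at most 2 per comparison) and the 4 genes most correlated with Acot3, Acot1 and Acot4 at a mean of at least 5 CPM. Groups were taken from the sample labels. No pair of libraries was identical (0 pairs). No protein sequences were used.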

Additional observations from a re-analysis of the deposited data

Results flagged for a closer look

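Of 54 sets of 5 libraries (9 members in 6 groups), 6 held a library that stood far from the other 4 by Dixon's test at its 95% level, which chance flags in about 1 of 20 sets. Uro replicate 3 was highest for Acot2 at 42.7 CPM, against 27.1 CPM in the next library. HFD replicate 5 was highest for Acot3 at 9.75 CPM, against 3.87 CPM in the next. HFD replicate 4 was highest for Acot9 at 5.11 CPM, against 2.68 CPM in the next. NFD replicate 5 was highest for Acot9 at 7.65 CPM, against 1.16 CPM in the next. HFD replicate 2 was highest for Acot12 at 56.2 CPM, against 30.8 CPM in the next. MC replicate 5 was lowest for Acot13 at 25.6 CPM, against 35.9 CPM in the next.

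The effect of diet differed between the studies for 2 members by the interaction test of edgeR. For Acot8 it was 1.28 log2 units lower in HFD minus NFD than in MC minus NC (-1.28, edgeR adjusted p = 0.0107), and for Acot1 2.07 log2 units lower (-2.07, edgeR adjusted p = 0.0356).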

How the results depend on the processing

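Of 1511 recomputed values of single members, 1315 kept their direction and their side of the threshold or moved by less than the spread. Without the low-count filter 1 member was called in MC minus NC (2 in the report), 3 in HFD minus NFD (6) and 1 in the difference of diet effects (2). The unfiltered fit called 1567 of 23622 genes in MC minus NC and 1678 of 25523 in HFD minus NFD. In the difference of diet effects it called 688 of 27036. In limma on log2(TPM + 1) and log2(TPM + 0.1) the counts were 4 and 4 in MC minus NC, 8 and 7 in UB minus NC (1 in the report), 0 and 0 in HFD minus NFD and 0 and 0 in the difference of diet effects. Of all 13498 genes, limma called 2078 and 2526 in MC minus NC and 7665 and 7661 in UB minus NC. It called 625 and 972 of 14163 in HFD minus NFD and 59 and 95 of 14784 in the difference of diet effects. The median log2 fold change of all genes on those scales was 0.25 and 0.49 in MC minus NC and 0.55 and 0.93 in UB minus NC. This median was 0.15 and 0.35 in HFD minus NFD, 0.55 and 0.93 in Uro minus HFD and 0.76 and 1.34 in Uro minus NFD. With the mitochondrial share as a covariate 1 member was called in MC minus NC and 0 in UB minus NC, Uro minus HFD, Uro minus NFD and the difference of diet effects. Of all genes that fit called 2.88% in MC minus NC and 0.53% in UB minus NC. It called 0.01% in Uro minus HFD, 0% in Uro minus NFD and 1.26% in the difference of diet effects. With all 30 libraries in 1 fit 1 member was called in MC minus NC, with 1532 of 14784 genes in all. Leaving out 1 library gave 0 to 3 calls in MC minus NC, 1 in UB minus NC, 2 to 5 in HFD minus NFD, 6 to 7 in Uro minus HFD, 4 to 7 in Uro minus NFD and 1 to 3 in the difference of diet effects, and 2.07 to 2.37 for Acot3 in UB minus MC. With replicate number as a block 5 were called in HFD minus NFD, 6 in Uro minus HFD, 7 in Uro minus NFD and 3 in the difference of diet effects, and Acot3 stood at 2.27 in UB minus MC. Of all 14163 genes the block fit called 1411 in HFD minus NFD, 3366 in Uro minus HFD and 3595 in Uro minus NFD. In the difference of diet effects it called 669 of 14784. Replicate numbers share no stated source, and of 30 same-number pairs of libraries 5 had a correlation of deviations over 0.1 (median 0.009), so the numbers were not taken as pairs. Beyond Acot2, Acot12 and Acot13, named above, the block added Acot1 in Uro minus NFD (edgeR adjusted p = 0.0301) and Acot7 in the difference of diet effects (edgeR adjusted p = 0.0469).

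Log2 fold changes turned direction in 25 cases. With the mitochondrial share as a covariate these were Acot1 at -0.016 in MC minus NC and -0.31 in UB minus NC, Acot2 at -0.99 in Uro minus HFD and -0.10 in Uro minus NFD, Acot4 at -0.63 in Uro minus NFD, Acot7 at -0.00011 in MC minus NC, Acot8 at -0.10 in UB minus NC and -0.13 in Uro minus NFD, Acot9 at 0.35 in UB minus NC and Acot13 at -0.56 in Uro minus HFD. In limma on log2(TPM + 1) and log2(TPM + 0.1) they were Acot4 at 0.31 and 0.36 and Acot12 at 0.039 and 0.032 in MC minus NC, Acot9 at 0.66 and 1.08 and Acot12 at 0.92 and 0.96 in UB minus NC, and Acot12 at 1.48 and 1.58 in Uro minus NFD. With 1 library left out, Acot4 ran from -0.18 to 0.064 in MC minus NC (above 0 without NC replicate 1 or MC replicate 5) and Acot7 from -0.088 to 0.20 (below 0 without NC replicate 4). In UB minus NC, Acot7 ran from -0.055 to 0.23 (below 0 without NC replicate 4) and Acot9 from -0.35 to 0.21 (above 0 without NC replicate 2). The causes were not tested. Depth limits Acot9 most, with 1 to 172 counts per library.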
